A study of Homo sapiens with 3 samples.

Results

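Chromatin-modifying and remodelling enzymes were followed in HCC827 lung adenocarcinoma cells that had become resistant to BIBW2992 (afatinib). Members were all genes whose current symbol starts with HDAC, KDM, KMT, SETD, DNMT, EZH, SMARC, ARID or PRMT, or with SIRT, TET, CHD or BRD and a number. A member was represented by its brightest probe that exceeded background on at least 1 array. Of 107 such genes (172 probes) named on the array, 85 entered, among 11747 genes that entered in all. The name rule also takes in some products that are no enzymes, such as the antisense RNA HDAC11-AS1, the PRC2 inhibitor EZHIP, the pseudogene BRD7P3 and non-catalytic subunits.

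The resistant cells were 2 sublines, HCC827-BR1 (clone 1) and HCC827-BR2 (clone 2), each grown from an individual clone after 3 to 4 months under BIBW2992 raised stepwise to 2 µM. They were set against the BIBW2992-sensitive parental line HCC827, whose growth depends on a mutated EGFR. BIBW2992 blocks EGFR and ERBB2 irreversibly. RNA was measured on 1 Illumina HumanHT-12 v3 array per line, so there were 2 resistant arrays and 1 parental array. The labels give no unselected clone, no time-matched parental culture and no statement on drug in the medium at harvest, so selection, cloning, culture time and drug exposure cannot be told apart.

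DNA in the nucleus is wrapped around histones, and the enzymes followed here change how tightly it is packed. Histone deacetylases and demethylases remove acetyl and methyl groups from histone tails, lysine and arginine methyltransferases add methyl groups, and DNA methyltransferases and TET enzymes write and oxidise methylated cytosine. SWI/SNF, ISWI and CHD complexes use ATP to slide or evict nucleosomes, and bromodomain proteins bind acetylated lysine. In lung cancer, SWI/SNF subunits such as SMARCA4 and ARID1A are known for recurrent inactivating mutations, and chromatin regulators including histone deacetylases and KDM5 demethylases have been studied in drug-tolerant cells.

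Values are normalized log2 probe signals, and a difference of 1 is a 2-fold difference. Levels are compared only within a probe. Between 33.3% and 34.3% of the 48803 probes were above background per array. With 3 arrays in all, precision is low. Resistant clones were tested against the parental array with limma over all 11747 genes, with Benjamini-Hochberg adjustment and a threshold of 0.05. The spread came from the 2 clones and a prior over all genes, so the parental line, with 1 array, is taken to be as variable as the clones. The labels do not say that the clones arose independently, so p-values measure only the spread between them. All 4 fibroblast markers (COL1A1, COL3A1, DCN and LUM) were below background on each array, as were PTPRC and CD3D of leukocytes and CDH5 and VWF of endothelium. CD68 and PECAM1 were above background on all 3 arrays and LYZ in clone 2 and parental cells, none of them called. Lung epithelial markers did not all match the line. KRT18 was below background throughout, which need not mean that it was absent. Of the 5 tested, 4 fell (limma), EPCAM, KRT8, NAPSA and NKX2-1, the last below background in both clones. The remaining one, KRT19, was also more than 2-fold lower in each clone (log2 -1.46 in clone 1, -3.88 in clone 2), without a call (limma adjusted p = 0.214). None of 18 proliferation markers was called (5.8% of all genes were). Their median difference was 0.18 in clone 1 and 0.64 in clone 2, beside 0.013 and 0.011 over all genes. By size, 4 of the 18 were at least 2-fold higher in clone 2 and 0 lower, where 806 and 971 of the 11747 genes were. The part of these shifts in the results for chromatin genes was not tested. In bulk RNA, fewer cells of a kind and less RNA per cell cannot be told apart.

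Among the 85 members, 1 rose and 0 fell (limma, adjusted p under 0.05), against 2.68% of all genes called higher and 3.12% called lower (5.8% in either direction). The member that rose was ARID5B, a DNA-binding partner of the demethylase PHF2. Another member, the class IIa deacetylase HDAC9, was at least 2-fold lower in both clones without passing the test. By size alone, both clones passed 2-fold upward for 1 member and downward for 1 member. Of all genes 4.74% did so upward and 5.35% downward, 10.1% together. At an unadjusted p under 0.05 there were 5 members: ARID5B, SMARCD3, HDAC9, KMT5B and KDM5B. These were 5.88% of the members, and 20.7% of all genes lay under that limit. SMARCD3 and KMT5B, like most members named below beyond the naming rule, were singled out after their values were seen. The functional groups below hold 4 to 17 tested members, too few for a lack of calls to be a result about a group.

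Most members differed little. The median difference of the members was -0.087 in clone 1, -0.015 in clone 2 and -0.0081 for the mean of the clones, against 0.013, 0.011 and 0.015 over all genes. The median absolute difference was 0.30 for members and 0.35 for all genes, and its 75th percentile was 0.46 for members and 0.67 for all genes. In 76 of 85 members (89.4%) the mean of the clones lay within 1.5-fold of the parental array, as it did in 70.1% of all genes. These shares are descriptions and not a test of the members as a set. Of the members 91.8% exceeded background on all 3 arrays, and of all genes tested 82.5%. The 95% interval of a member's difference had a median half-width of 0.70, and for 36 of the 85 members the whole interval lay within 2-fold of no difference. For the other 49 the interval reached beyond 2-fold.

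**Figure D1:**
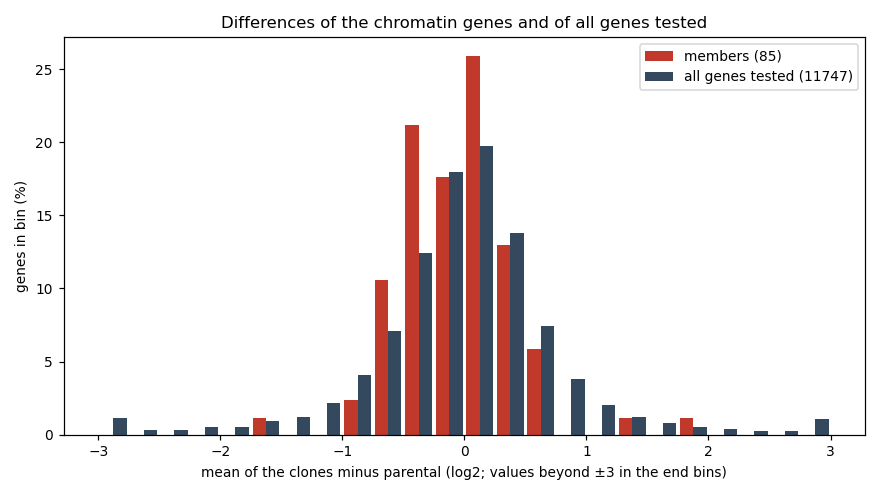
Percentage of genes in bins of 0.25 of the difference, mean of the 2 clones minus parental (log2), for the 85 members and for all 11747 genes tested. The members lie between -1.71 and 1.94, with a median absolute difference of 0.30, and 76 of them lie within 1.5-fold of the parental array.

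Only ARID5B and HDAC9 were 2-fold or more off in each clone, and the DNA at their annotated starts is shown for that reason. The RefSeq promoter windows (GRCh38.p14, 250 bases before to 50 after the start) were ARID5B on the plus strand at chr10:61901449-61901748 and HDAC9 on the plus strand at chr7:18495499-18495798, written 5′ to 3′ with CG dinucleotides in capitals.
ARID5B: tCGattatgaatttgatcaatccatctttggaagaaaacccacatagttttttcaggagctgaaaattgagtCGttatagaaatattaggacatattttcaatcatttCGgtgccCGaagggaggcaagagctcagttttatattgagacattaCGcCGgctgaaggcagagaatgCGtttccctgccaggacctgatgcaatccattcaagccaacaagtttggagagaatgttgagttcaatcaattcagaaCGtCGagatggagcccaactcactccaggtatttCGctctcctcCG
HDAC9: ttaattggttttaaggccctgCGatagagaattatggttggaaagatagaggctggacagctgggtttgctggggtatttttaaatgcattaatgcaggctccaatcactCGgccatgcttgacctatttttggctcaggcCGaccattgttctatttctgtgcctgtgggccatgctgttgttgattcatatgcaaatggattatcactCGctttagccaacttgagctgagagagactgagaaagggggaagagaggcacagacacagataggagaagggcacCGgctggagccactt
The ARID5B window held 11 CG dinucleotides at a G+C content of 43%, and the HDAC9 window held 5 at 47.3%. Of the 85 members, 74 matched a promoter of this table, with a median of 29 CG dinucleotides, and 86.5% of them were CpG-rich (G+C over 50% and observed over expected CG above 0.6). Among the genes tested that had a window, 78.2% were CpG-rich, with a median of 26, and 46.8% of all windows in the table were. ARID5B and HDAC9 were among the 10 entered members whose window was not CpG-rich, together with CHD2, CHD3, DNMT3B, HDAC4, HDAC8, SETDB1, SMARCA1 and SMARCAD1. ARID5B missed the G+C limit only, with an observed over expected CG of 0.79, while HDAC9 missed both limits (0.31). Both genes were picked by their values, and a link between window and difference was not tested. Only 1 start per gene is listed, and which start these cells use was not measured.

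The ARID family comprises DNA-binding proteins with an AT-rich interaction domain. ARID5B had signals of 11.84 in clone 1 and 12.09 in clone 2, against 10.03 in parental cells. Both clones were high and lay within 0.26 of each other, well apart from the parental array. The mean of the clones was 11.96 ± 0.18 (SD, n = 2), 3.83-fold above the parental signal (log2 1.94, SE 0.28, limma adjusted p = 0.0258). With both clones kept, the difference ran from 1.83 to 1.94 over the processing settings and the limma adjusted p from 0.0123 to 0.0367. It was 2.06 without clone 1 and 1.81 without clone 2, where no test is possible. Of the other 3 members outside SWI/SNF, ARID3A differed by 0.19, ARID4B, a subunit of SIN3 complexes, by 0.20, and ARID3B by -0.0081.

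**Figure D2:**
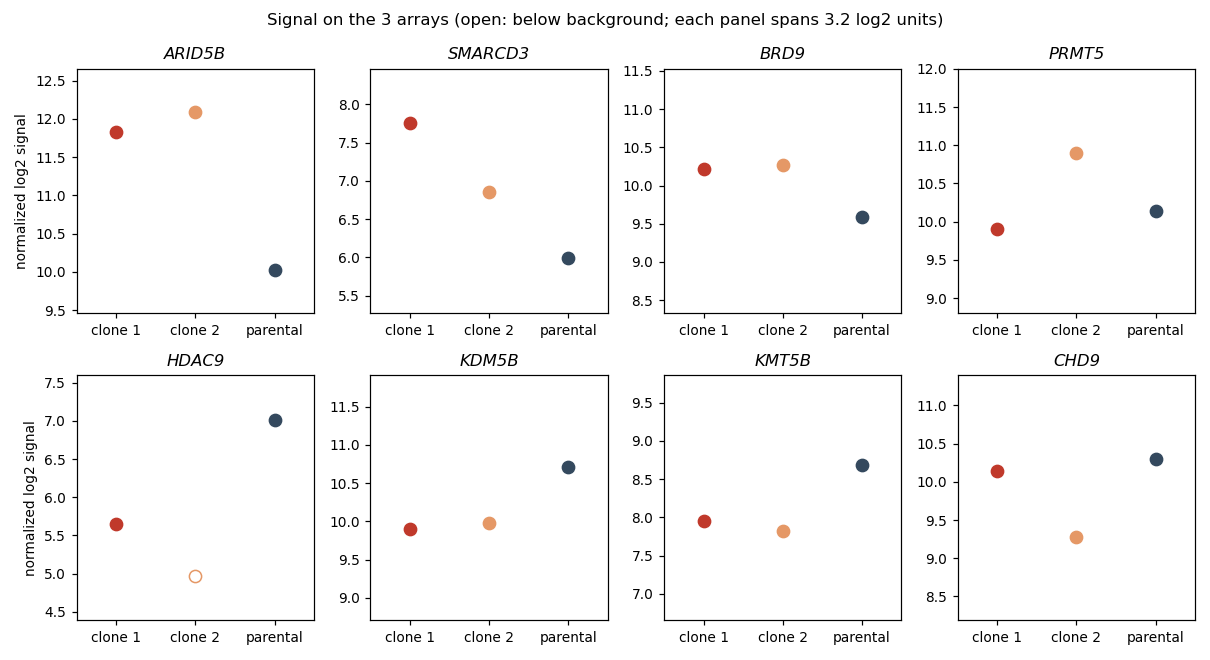
Normalized log2 signal of 8 members on the arrays of clone 1, clone 2 and parental cells; panels span equal ranges and open points were below background. ARID5B stood at 11.84 and 12.09 in the clones and 10.03 in parental cells, while HDAC9 stood at 5.65 and 4.97 in the clones and 7.02 in parental cells.

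The group of class I, II and IV histone deacetylases held 12 named genes, the antisense RNA HDAC11-AS1 among them. Of these 7 entered, none of them of class IV, and none was called (5.8% of all genes were). HDAC9, which represses MEF2-dependent transcription, had signals of 5.65 in clone 1 and 4.97 in clone 2, against 7.02 in parental cells. Its probe was below background in clone 2, so that the difference there is at least 2.93-fold, and was 2.58-fold lower in clone 1. The limma difference was -1.71 (SE 0.37, adjusted p = 0.0742). Over the settings tried the difference ran from -2.06 (without clone 1) to -1.14. Limma adjusted p-values, given only with both clones, ran from 0.0491 to 0.0909. A second HDAC9 probe had 5.99 in parental cells and was below background in each clone, at least 1.46-fold lower, and the remaining HDAC9 probes were below background on each array. The class I enzymes HDAC1 and HDAC2, the catalytic pair of the NuRD, SIN3 and CoREST complexes, differed by -0.26 (95% interval -0.96 to 0.44) and 0.04 (-0.62 to 0.70). HDAC2 turned to -0.050 after median scaling. HDAC3, the catalytic subunit of NCoR complexes, had signals of 9.77 and 9.73 in the clones and 10.31 in parental cells, a difference of -0.57 that was not called (adjusted p = 0.302). HDAC8, another class I enzyme, differed by -0.58, HDAC4 by -0.30 and the tubulin deacetylase HDAC6 by -0.18. The median over the 7 was -0.30, beside 0.015 over all genes. HDAC5, HDAC7, HDAC10, HDAC11 and HDAC11-AS1 were below background on each array.

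Sirtuins, the NAD-dependent deacylases, gave 6 entered genes of 7 and no call (5.8% of all genes were called). SIRT1 had signals of 8.91 in clone 1 and 9.53 in clone 2, against 8.86 in parental cells, so that clone 2 alone stood apart. Its limma difference was 0.36 (SE 0.35, adjusted p = 0.628). SIRT4, a mitochondrial sirtuin, was split in the other direction, with 7.08 in clone 1, 6.17 in clone 2 and 6.96 in parental cells. The mitochondrial SIRT5 differed by -0.12, and the nucleolar SIRT7 by -0.20. The further SIRT5 probes above background on each array gave -0.12 and 0.23, so the SIRT5 probes disagreed in direction. SIRT2 exceeded background in clone 2 alone and SIRT6 in parental cells alone, both close to the detection limit.

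None of the 4 entered DNA methyltransferases was called, where 5.8% of all genes were. DNMT1, which copies methylation after replication, had 12.16 and 12.30 in the clones and 12.09 in parental cells, a difference of 0.13 (95% interval -0.54 to 0.81). DNMT3B, a de novo enzyme, had 6.81 and 7.08 in the clones and 7.45 in parental cells, a difference of -0.50 (limma adjusted p = 0.388). The DNMT3B probes that were also above background on each array gave -0.35 and -0.26, and a further one was below background in both clones, at least 1.06-fold lower there. DNMT3A and its catalytically inactive relative DNMT3L exceeded background in parental cells alone, by so little that the bounds were at least 1.11-fold and at least 1.08-fold lower in the clones. The dioxygenases TET1 and TET2 were below background on each array. UHRF1, which brings DNMT1 to replicated DNA, had 11.10 and 11.47 in the clones and 9.81 in parental cells, a 2.78-fold higher mean that missed the threshold (adjusted p = 0.0608).

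In the lysine methyltransferase group 17 of 21 named genes entered, and none was called (5.8% of all genes were). The 21 count the PRC2 inhibitor EZHIP, which was below background on each array. KMT5B, which di- and trimethylates histone H4 lysine 20, had the lowest difference, with signals of 7.96 and 7.83 in the clones and 8.69 in parental cells (log2 -0.80, SE 0.26, limma adjusted p = 0.182). The 2 further KMT5B probes gave -0.30 and 0.21, so the probes disagreed in size and direction. EZH2, the catalytic subunit of Polycomb repressive complex 2, had 7.80 and 7.85 in the clones and 7.98 in parental cells, a difference of -0.16 (95% interval -0.82 to 0.50). The further EZH2 probes, above background on each array, gave -0.15 and -0.43. The EZH2 paralogue EZH1 differed by -0.0053 (95% interval -0.67 to 0.66). Its signals of 5.61 and 5.55 in the clones and 5.59 in parental cells were close to the detection limit, which limits this reading. KMT2A, the MLL1 enzyme of histone H3 lysine 4, had 6.67 and 6.33 in the clones and 5.94 in parental cells, a difference of 0.56 without a call (adjusted p = 0.360). The related KMT2C differed by -0.30 and KMT2B by 0.20. KMT2E, a family member without known methyltransferase activity, had 7.14 in clone 1, 6.59 in clone 2 and 7.24 in parental cells, a difference of -0.37. The 2 further KMT2E probes gave -0.057 and 0.086, the latter above background in clone 1 alone. Both were higher than parental cells in clone 1 (0.37 and 0.38) and lower in clone 2 (-0.49 and -0.20), so the KMT2E probes disagreed. SETD2, which trimethylates histone H3 lysine 36, differed by 0.13, the lysine 9 enzyme SETDB1 by -3.5e-04 (its sign turned with a larger background offset), and the actin histidine methyltransferase SETD3 by -0.15. The median of the 17 differences was -3.5e-04.

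Lysine demethylases gave 11 entered genes of 15 and no call (5.8% of all genes were called). KDM5B, which removes methyl groups from histone H3 lysine 4, had 9.90 and 9.98 in the clones and 10.71 in parental cells. The clones lay within 0.07 of each other, 1.71-fold below the parental signal (log2 -0.77, SE 0.26, limma adjusted p = 0.188). KDM3B, a lysine 9 demethylase, had 8.55 and 8.24 in the clones and 9.02 in parental cells, a difference of -0.63 (adjusted p = 0.296). In the other direction, KDM4D differed by 0.52, the lysine 27 demethylase KDM6A by 0.41 and KDM4A by 0.37. The KDM4A signal of 5.51 in parental cells was close to the detection limit. KDM6A had 7.93 and 8.19 in the clones and 7.65 in parental cells, and the interval of its difference ran from -0.30 to 1.12. KDM1A, the LSD1 demethylase of CoREST, differed by -0.074 (95% interval -0.75 to 0.61). KDM2B, a subunit of a variant Polycomb complex, had 11.19 and 10.84 in the clones and 10.69 in parental cells, a difference of 0.32. KDM6B, KDM4B and KDM8 were below background on each array.

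Arginine methyltransferases gave 7 entered genes of 8, none called (5.8% of all genes were). PRMT5, the main enzyme of symmetric arginine dimethylation, differed more between the clones than any other member: 9.91 in clone 1 and 10.90 in clone 2, against 10.14 in parental cells. Clone 2 exceeded clone 1 by 0.99, and the parental value lay between them. A second PRMT5 probe differed from parental cells by -0.44 in clone 1 and 0.85 in clone 2. No member reached a 2-fold gap between the clones, where 3.82% of all genes did, although PRMT5 reached 1.02 with median scaling and 1.14 with the mean of its probes. PRMT3, which modifies a ribosomal protein, had 10.34 and 10.55 in the clones and 11.02 in parental cells (difference -0.57, limma adjusted p = 0.317). PRMT2 differed by 0.55, PRMT7 by 0.42 and PRMT1 by 0.23. PRMT6, which modifies histone H3 arginine 2, was read differently by its probes. Its brightest probe had 10.64 and 10.72 in the clones and 10.53 in parental cells, and its dimmest had 6.98 and 7.14 in the clones and was below background in parental cells, at least 3.10-fold higher. The remaining probe differed by 0.41. With the mean of the probes the difference was 0.85 (adjusted p = 0.148).

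**Figure D3:**
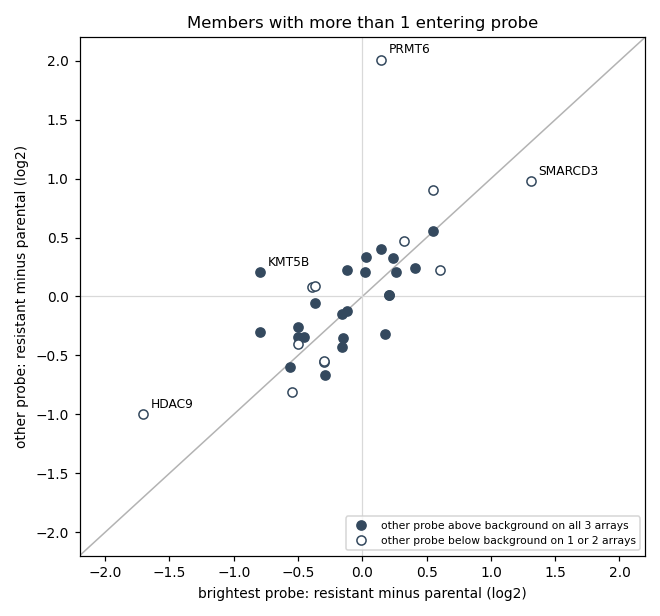
Difference of each other entering probe (vertical) against that of the brightest probe of the same member (horizontal), resistant minus parental on the log2 scale, for 35 probes of 25 members; the line marks equality and open points were below background on 1 or 2 arrays. PRMT6 (0.15 and 2.01), KMT5B (-0.80 and 0.21) and HDAC9 (-1.71 and -0.99) lie farthest from the line.

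Over all members, 25 had more than 1 entering probe. Of their 35 other probes, 32 lay within 0.5 of the brightest probe and 30 had its sign, probes below background on 1 or 2 arrays included. ARID5B had 1 probe and could not be checked in this way.

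SWI/SNF complexes were represented by 12 entered genes of 13, none called (5.8% of all genes were), and their largest difference was in a subunit variant. SMARCD3, the BAF60C subunit, had 7.75 in clone 1 and 6.85 in clone 2, against 5.99 in parental cells. Both clones were higher, clone 1 by 3.40-fold and clone 2 by 1.82-fold, and the limma difference was 1.31 (SE 0.43, adjusted p = 0.182). A second SMARCD3 probe exceeded background in clone 1 alone, with 5.92. SMARCD1, the BAF60A subunit, had 11.52 and 11.58 in the clones and 10.94 in parental cells, a difference of 0.61 (adjusted p = 0.277). BRD9, of the non-canonical BAF complex, had 10.22 and 10.27 in the clones and 9.59 in parental cells, a difference of 0.66 (adjusted p = 0.244). The core subunits SMARCB1 and SMARCC1 differed by 0.41 and 0.014, and SMARCC2 by -0.29. A further SMARCC2 probe above background on each array gave -0.66. None of the ATPases was called. SMARCA4 (BRG1) had 10.68 and 10.80 in the clones and 10.79 in parental cells, a difference of -0.045 (95% interval -0.71 to 0.62). SMARCA2 (BRM) differed by -0.10 (95% interval -0.82 to 0.61) and ARID1A, the DNA-binding subunit of BAF, by -0.29 (-1.02 to 0.44). ARID1B was below background on each array. The median over the 12 was 0.39 in clone 1 and 0.026 in clone 2.

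None of 9 CHD remodellers was called (lowest limma adjusted p = 0.316), where 5.8% of all genes were. Their median absolute difference was 0.45, beside 0.30 over all members and 0.35 over all genes. CHD1, CHD1L, CHD2, CHD4, CHD7, CHD8 and CHD9 differed by -0.59 to -0.35, and CHD3 and CHD6 by 0.077 and 0.027, which turned negative after median scaling. CHD4, the ATPase of NuRD, had 9.95 and 10.05 in the clones and 10.46 in parental cells. CHD9 had 10.14 in clone 1 and 9.28 in clone 2, against 10.30 in parental cells, and was 2.03-fold lower in clone 2 alone. CHD8, which binds beta-catenin, was split the other way, at 8.14 in clone 1, 8.95 in clone 2 and 9.02 in parental cells. The median of the 9 was -0.45, beside 0.015 over all genes. Among the ISWI ATPases, SMARCA1 had 9.87 and 9.94 in the clones and 10.47 in parental cells, a difference of -0.56 (adjusted p = 0.309), and SMARCA5 differed by 0.019. SMARCAD1 differed by 0.40 and SMARCAL1, which restarts stalled replication forks, by -0.30. Of the BET bromodomain proteins, readers of acetylated histones at promoters, BRD2 had 11.57 in both clones and 11.34 in parental cells, and BRD3 differed by 0.41 (adjusted p = 0.444).

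**Figure D4:**
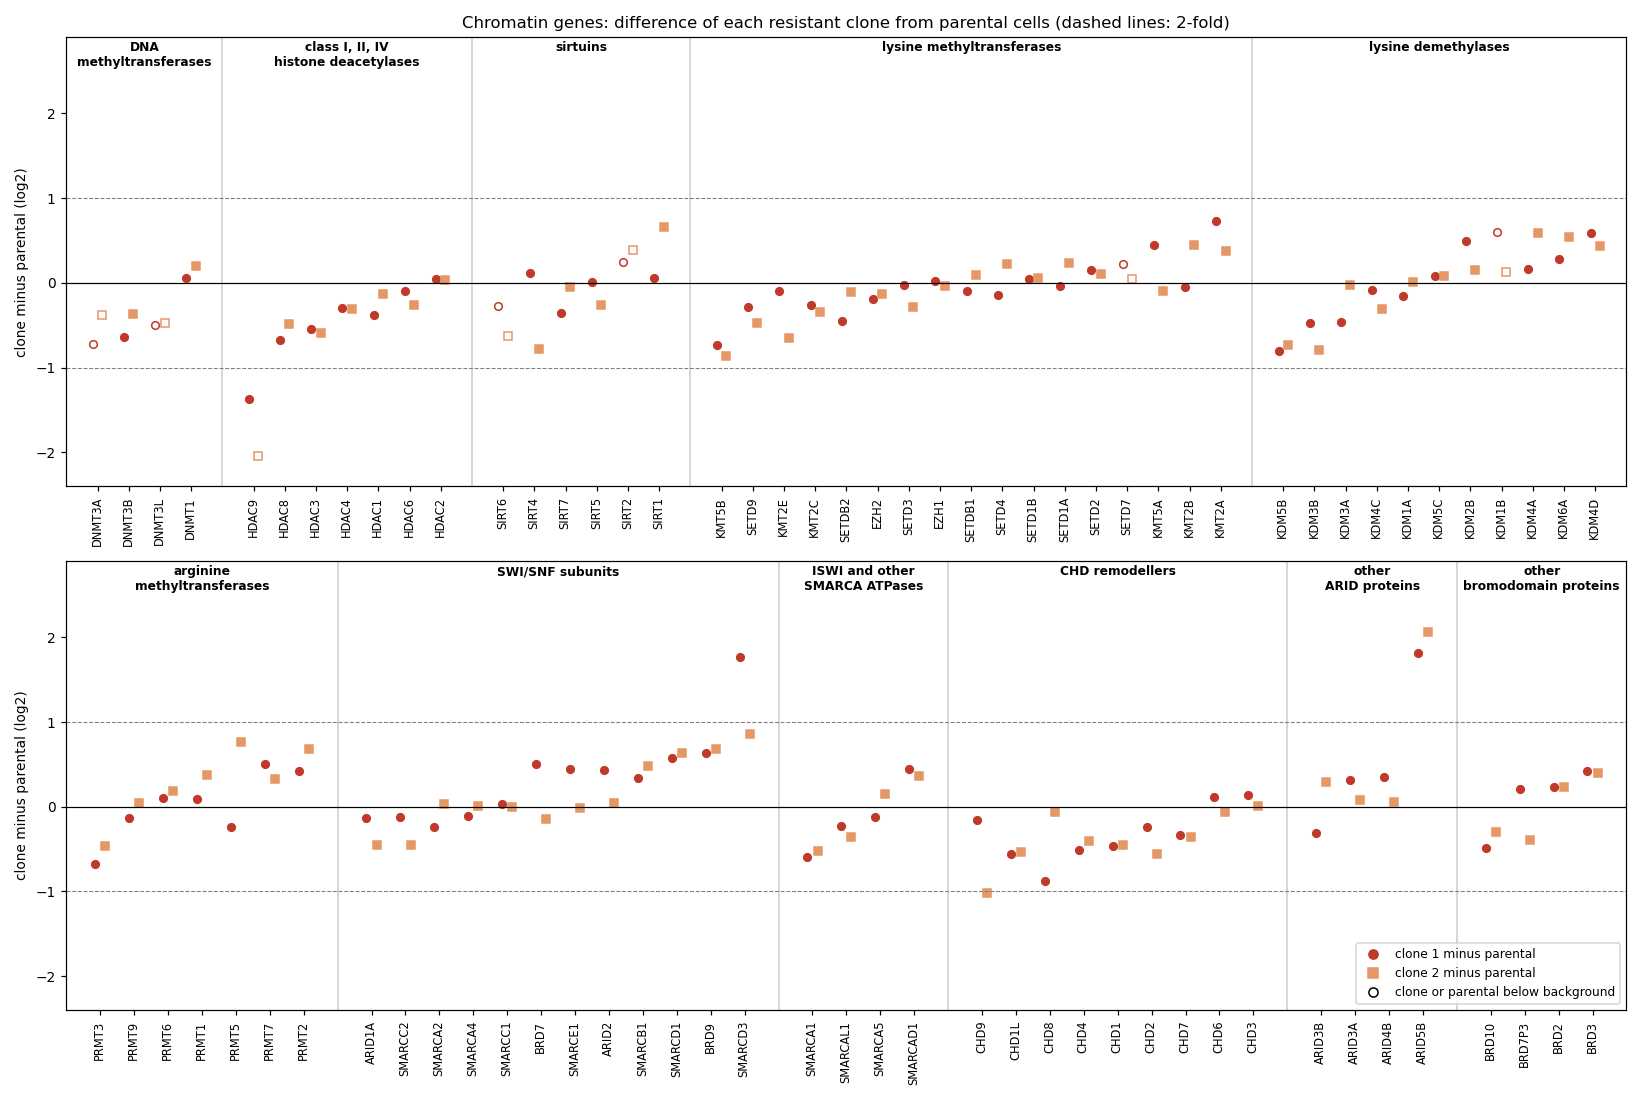
Difference of clone 1 (circles) and clone 2 (squares) from parental cells on the log2 scale for each of the 85 entered members, by functional group; open symbols mark a clone or parental value below background and dashed lines mark 2-fold. ARID5B lies above and HDAC9 below the 2-fold lines in both clones, SMARCD3 passes the line in clone 1 alone and CHD9 in clone 2 alone.

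By size in single clones, 3 members were at least 2-fold off in clone 1 (ARID5B and SMARCD3 higher, HDAC9 lower), where 14.5% of all genes were. In clone 2 there were also 3 (ARID5B higher, HDAC9 and CHD9 lower), where 15.1% of all genes were. The parental array is shared by both differences.

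**Figure D5:**
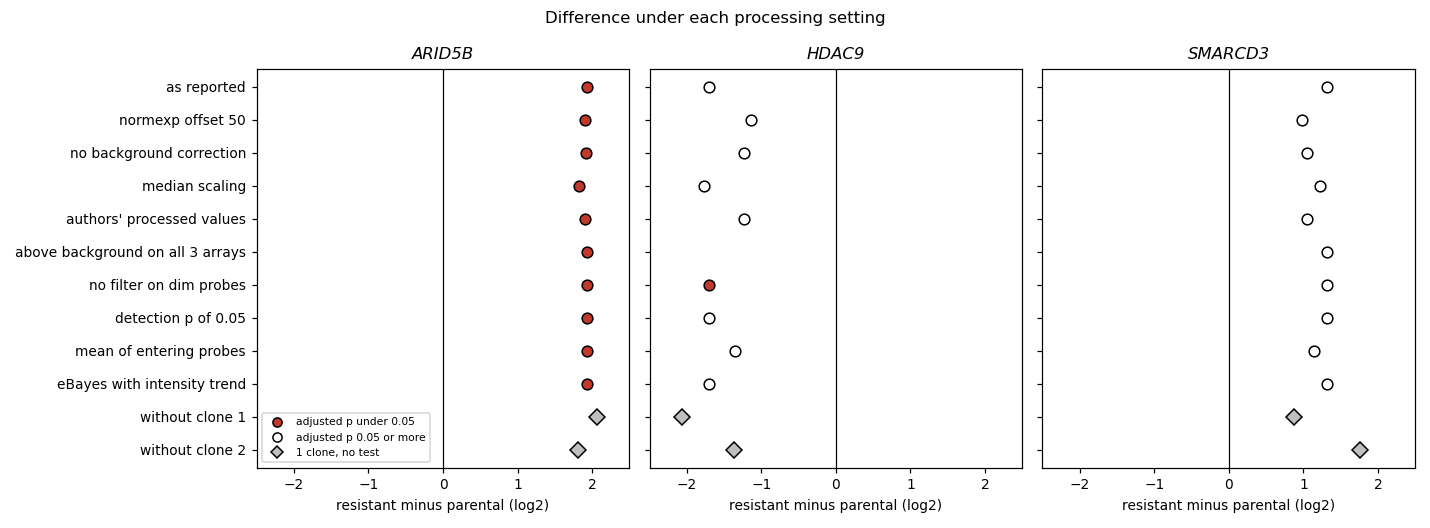
Difference of ARID5B, HDAC9 and SMARCD3, resistant minus parental on the log2 scale, under each processing setting; filled circles had an adjusted p under 0.05, open circles did not, and diamonds are a single clone without a test. With the single clones included, ARID5B stayed between 1.81 and 2.06, HDAC9 between -2.06 and -1.14, and SMARCD3 between 0.87 and 1.76.

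Partner proteins and related genes that the name rule leaves out, called partners here for short, were followed in 9 lists. Of their 176 genes, 146 were tested. Some are no binding partners of the members, such as IDH1 and the RNA demethylases ALKBH5 and FTO. Limma called 0 higher and 2 lower, IDH1 and BAZ2B, against 2.68% and 3.12% of all genes. IDH1, which makes the 2-oxoglutarate that TET enzymes and many histone demethylases consume, had 9.995 and 9.923 in the clones and 12.05 in parental cells. It fell 4.27-fold (log2 difference -2.09 with SE 0.26, limma adjusted p = 0.0177). BAZ2B, a bromodomain protein related to subunits of ISWI complexes, had 7.38 and 7.06 in the clones and 9.18 in parental cells. It fell 3.87-fold (log2 difference -1.95 with SE 0.29, limma adjusted p = 0.0278). By size in both clones, UHRF1 and PRDM8 also passed 2-fold upward and INO80B and BCL11A downward, without a call (limma adjusted p from 0.0608 to 0.266). BCL11A, a BAF-associated zinc finger protein, had 7.89 in clone 1 and 9.16 in parental cells and was below background in clone 2. The Polycomb, acetyltransferase, NuRD-SIN3-NCoR-CoREST and COMPASS partner lists held 23, 14, 23 and 13 tested genes. None of these was called, where 5.8% of all genes were, but the lists are too small for a lack of calls to be a result. The medians of these lists were 0.011, 0.045, 0.024 and 0.27 beside 0.015 over all genes. The BAF partner list had a median of -0.088, that of other methyltransferases 0.21, of other demethylases 0.25, of other remodellers -0.35 and of DNA methylation partners -0.011.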

How the data were processed

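Total RNA was labelled with biotin and hybridised to 3 arrays, per the labels' protocols. The table used was deposited as non-normalized intensity, linear and with no detection p-values. A second deposited intensity table, whose columns share 1 distribution, served as an alternative; the sources used here do not say how the authors made either. Background was corrected with normexp (offset 16) and arrays were quantile-normalized on the log2 scale. Detection was a one-sided p under 0.01 against each array's dim probes (signals of 66.3, 71.5 and 71.0 in clone 1, clone 2 and parental cells). Probes were named from the platform annotation, and 28059 of the 28098 probes with 1 gene were matched to RefSeq (GRCh38.p14) for current symbols. Genes that entered were tested with limma 3.58.1 in R 4.3.3 (lmFit, eBayes; 1 residual and 4.04 prior degrees of freedom), which was tested on simulated data. Where 1 group was below background, the fold is a bound, against the lowest signal that exceeded background.

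Members, lists and naming rule were chosen with earlier results of these data known. Named by rule were members called, at least 2-fold off in both clones or apart between them, the brightest of each family, and a fixed list; partners were named if called or 2-fold off in both clones. KDM5A, KDM2A, SMARCD2, TET3 and other genes that the annotation used did not name were not analysed here, and KDM5D is counted without a level.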

Additional observations from a re-analysis of the deposited data

How the results depend on the processing

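ARID5B was called under each of the 9 alternatives with a test, and the count of members called higher was 1 in each. Over single members, 10 of 758 values turned sign under these alternatives, all of them given below, and 20 of 167 with 1 clone left out, PRMT5 (-0.23 without clone 2) and SIRT4 among them. HDAC9 passed the threshold with no filter on dim probes (limma adjusted p = 0.0491), which made 1 member called lower. HDAC9 also set the count 2-fold lower in both clones, which was 0 with an offset of 50 and 0 with probes above background on all 3 arrays, a filter that leaves it out. PRMT5 alone was 2-fold apart between the clones (1 member) with median scaling and with the mean of entering probes. Median scaling moved the median of all genes to -0.076 and that of the members to -0.098 (clone 1 -0.15, clone 2 -0.10), and turned CHD3 to -0.028, CHD6 to -0.075, HDAC2 to -0.050, KDM5C to -0.0020, SETD1B to -0.052, SETD4 to -0.043, SMARCA5 to -0.087 and SMARCC1 to -0.095. BRD7 turned to -0.070 with the mean of entering probes, and SETDB1 to 2.43e-05 with the larger offset. The cause of these turns was not tested. With 1 clone left out there is no test. Counts 2-fold off then ran from 1 to 2 higher and from 1 to 2 lower, adding SMARCD3 without clone 2 and CHD9 without clone 1, and the members' median ran from -0.092 to -0.027. No paired analysis was possible because the parental group has 1 array. Signals near background limit HDAC9, DNMT3A, DNMT3L, SIRT2, SIRT6, KDM1B and SETD7. They also limit EZH1, KDM4A and KDM4C, which were above background on all 3 arrays but close to the detection limit on at least 1.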
